A study of Mus musculus with 6 samples.

Results

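Acinar cells secrete the digestive enzymes of the pancreas. They were examined cell by cell and library by library 9 days after pancreatitis was induced with cerulein. They were chosen by what they expressed. From the 2 libraries of run 3, barcodes were taken that held at least 200 genes, at most 20% mitochondrial UMIs (unique molecular identifiers, each standing for 1 captured transcript molecule) and at most 50% haemoglobin UMIs, and that drew at least 25% of their UMIs from 11 enzyme genes (Ctrb1, Cela2a, Cela3b, Cpa1, Cpb1, Prss2, Try4, Try5, Pnlip, Clps and Rnase1). This gave 451 cells, 88 in the EYFP positive and 363 in the EYFP negative library, of 4060 barcodes in run 3 and 8582 in the series. All 6 libraries were single-cell RNA libraries of pancreatic cells. The mice were C57Bl/6J animals of the strain R26[CA]30EYFP, and each run gave an EYFP positive and an EYFP negative library, EYFP being a yellow fluorescent protein that labels cells. Run 3 came from mice given cerulein at 50 ug/kg in 7 hourly injections a day on 2 days, 9 days before sampling, and runs 1 and 2 from mice with no treatment (homeostasis). Run 3 and pancreatitis therefore cannot be told apart. The labels do not say what drives EYFP, how many mice a library pooled or whether libraries came from separate mice, so the spread behind each p-value is that between libraries and may be technical.

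Acinar cells make digestive enzymes as inactive zymogens, store them in granules and release them when cholecystokinin or acetylcholine calls for secretion. Cerulein is an analogue of cholecystokinin that in excess makes trypsinogen activate inside the cell and injures the pancreas, and the tissue of a mouse normally regenerates in the following days. During injury acinar cells are known to switch on Reg lectins and, in part, to lose enzyme expression and take on duct-cell genes, which is called acinar-to-ductal metaplasia.

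The enzyme genes separated the cells from the other barcodes with few in between. Of the barcodes that passed the filters on genes, mitochondrial and haemoglobin UMIs, 88 of 235 in the EYFP positive library (37.4%, exact 95% binomial interval 31.2 to 44.0) and 363 of 1366 in the EYFP negative library (26.6%, 24.2 to 29.0) were acinar. Intervals here cover counting error only. Between 5% and 25% enzyme UMIs lay 12 and 15 barcodes, and under 5% lay 135 and 988, which serve below as the other barcodes. The nearest barcodes inside the limit held 28.7% and 25.2% enzyme UMIs in the EYFP positive and EYFP negative library, and the nearest outside it held 22.8% and 23.1%. The share ran to 67.5% and 67.6%, with medians of 59.6% and 58.7%, and 75 of 88 and 292 of 363 cells held at least 50%.

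**Figure D1:**
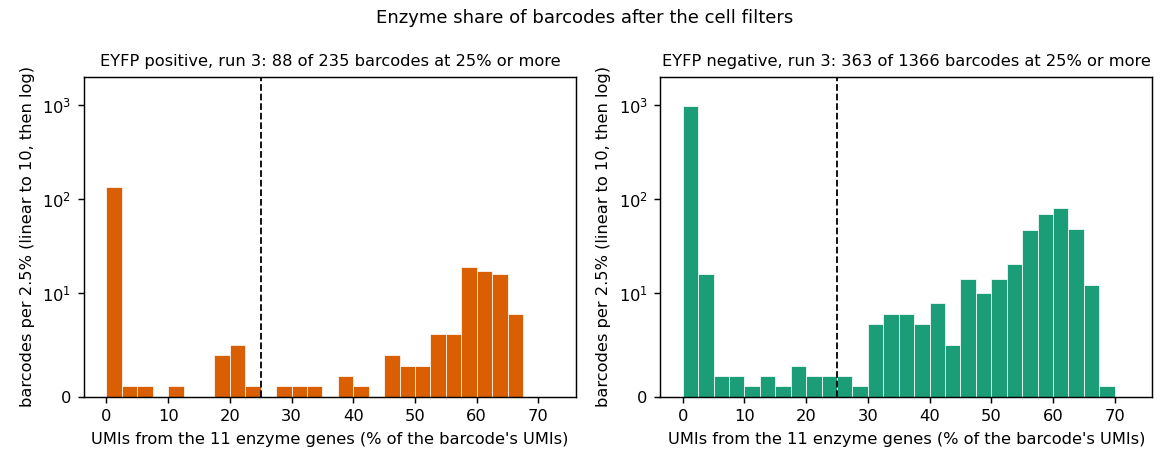
Barcodes per 2.5% step of the enzyme share (horizontal axis, percent of a barcode's UMIs from the 11 enzyme genes) in EYFP positive run 3 (left) and EYFP negative run 3 (right), on a count axis that is linear to 10 and logarithmic above; the dashed line marks 25%. Most barcodes lie under 5% or over 50%, and the 84 acinar cells between 25% and 50% are 13 EYFP positive and 71 EYFP negative cells.

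The acinar cells summed to 803013 UMIs in the EYFP positive and 3003692 in the EYFP negative library of run 3, at a median of 7392.5 and 6509 UMIs and 500.5 and 520 genes per cell. The same rule found 64 cells in homeostasis, 35, 5, 8 and 16 in EYFP positive runs 1 and 2 and EYFP negative runs 1 and 2, with sums of 11088 to 275861 UMIs. The run 3 libraries shared 47 barcodes, 0 of them acinar in both. Scrublet called 0 and 28 doublets, 2 of these 28 acinar, and called doublets were kept. The 5 markers Ctrb1, Cela2a, Cpa1, Prss2 and Rnase1, all part of the rule, were in 100% of the cells. They were also in 37.0% (Cpa1) to 91.1% (Ctrb1) of the EYFP positive library's other barcodes. In the EYFP negative library these shares were 32.5% and 87.9%, so their detection alone does not set acinar cells apart. Of genes the rule did not use, the Reg lectin Reg1 was found in 100% of cells of both libraries, given here without its share in other barcodes. The secretagogue receptor gene Cckar was in 52.3% of EYFP positive and 47.9% of EYFP negative acinar cells, against 0% and 0.304% of the other barcodes (median 7676 and 5242.5 UMIs). B, T or NK, pericyte and neutrophil markers summed to 0 UMIs in the EYFP positive acinar cells and to 0 to 18.6 CPM (UMIs of a gene per 1000000 UMIs) in the EYFP negative ones. Duct markers summed to 21.2 CPM in EYFP positive and 67.6 CPM in EYFP negative acinar cells, where a single cell held 72.9%. Endothelial markers summed to 7.47 and 6.33 CPM. Plasma cell, macrophage and fibroblast markers summed to 1.25 to 3.74 CPM in EYFP positive and 0.999 to 5.99 CPM in EYFP negative acinar cells. Erythroid markers reached 379 and 8181 CPM, and 6 EYFP negative cells held over 5% haemoglobin UMIs (highest 44.7%). Endocrine markers summed to 63.5 CPM in EYFP positive and 1.66 CPM in EYFP negative acinar cells, and Ins2, the insulin gene of beta cells, was in 39.8% of the EYFP positive acinar cells and in 39.3% of that library's other barcodes, so no expression is read from it.

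The 11 enzyme genes, given as values because they chose the cells, were described by their share of the summed UMIs. The shares were alike in both libraries for some genes and differed for others, most for Cela2a, Pnlip and Clps. Ctrb1, a chymotrypsinogen, supplied 16.5% and 16.4% of UMIs in the EYFP positive and EYFP negative library. The trypsinogens Prss2, Try4 and Try5 supplied 5.96% and 5.94%, 6.00% and 5.39%, and 2.79% and 2.54%. Cela2a, an elastase, supplied 8.13% of EYFP positive and 5.08% of EYFP negative UMIs, and Clps, the colipase that anchors pancreatic lipase to fat droplets, 5.72% and 7.47%. Pnlip, the pancreatic lipase, supplied 4.22% and 3.099%. Within single cells Ctrb1 ranged from 1.40% to 24.8% (median 15.97%) of UMIs in the EYFP positive library and from 2.36% to 29.4% (median 16.6%) in the EYFP negative one. Pnlip ranged from 0.0962% to 10.5% (median 3.84%) and from 0.0305% to 9.91% (median 2.80%). Pnlip thus spanned a wider relative range than Ctrb1 in both libraries.

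Cell-to-cell variation was measured as the coefficient of variation (CV) that remains after subtracting the spread that counting molecules gives, with each cell scaled by its own UMIs. A CV of 0.5 means a standard deviation of 50% of the mean. Of 242 genes with a mean of at least 1 UMI per cell in both libraries, 55 (22.7%) had a CV of at least 0.5 in both, 61 (25.2%) in the EYFP positive and 176 (72.7%) in the EYFP negative library. The median CV was 0.406 in the 88 EYFP positive cells and 0.563 in the 363 EYFP negative cells, and the CVs of the 2 libraries correlated across genes (Spearman's rho 0.52, 242 genes, which are not independent replicates). Of the 15 most variable genes in the EYFP negative library, 13 also had a CV of at least 0.5 in the EYFP positive one. These 15 were the minor trypsinogens Prss1, 1810009J06Rik, Gm5771, Gm10334 and Prss3, the mitochondrially encoded mt-Co1, mt-Co2, mt-Co3, mt-Nd2, mt-Nd4, mt-Atp6 and mt-Cytb, the cytoskeletal genes Tmsb4x and Actb, and Hbb-bs, a beta globin. At the steady end, 2210010C04Rik, an abundant trypsinogen, had a CV of 0.11 and 0.15. Tmed6, a cargo-sorting protein, had 0 and 0.16, the water channel Aqp12 0.33 and 0.19, the elastase Cela3b 0.16 and 0.19, and Prss2 0.17 and 0.24.

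**Figure D2:**
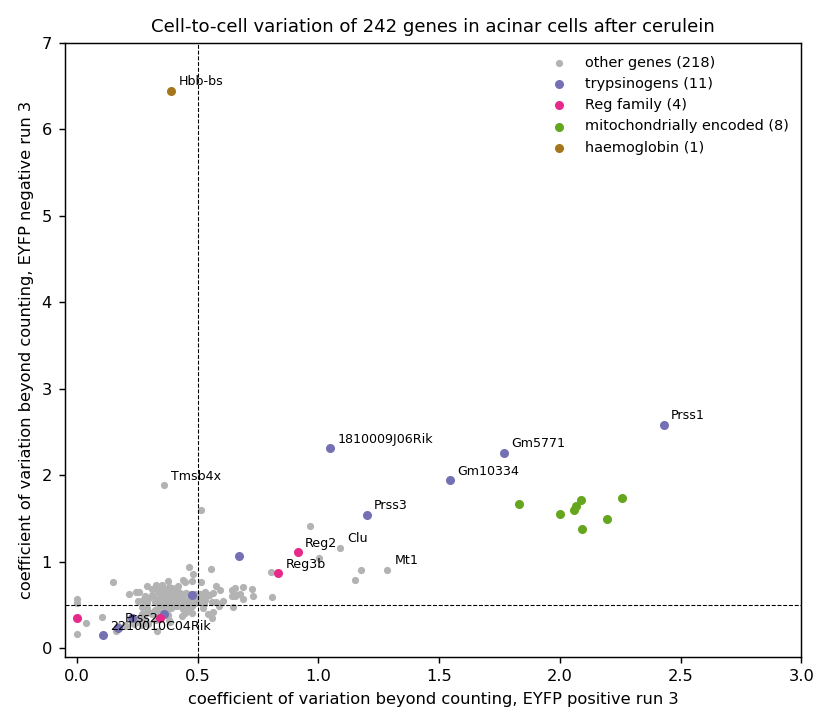
Each point is 1 of 242 genes, placed by its coefficient of variation beyond counting in the 88 acinar cells of EYFP positive run 3 (horizontal) and the 363 of EYFP negative run 3 (vertical), with dashed lines at 0.5. Prss1, Gm5771 and Gm10334 lie far out on both axes, whereas Hbb-bs (0.39 and 6.44) and Tmsb4x (0.36 and 1.89) reach 0.5 in the EYFP negative library alone.

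Not every high CV was shared by both libraries or by many cells. Hbb-bs had a CV of 6.44 in EYFP negative cells, where 1 cell held 30.1% of its UMIs, against 0.39 in EYFP positive cells. Tmsb4x, which binds actin monomers, had a CV of 0.36 in the EYFP positive and 1.89 in the EYFP negative library. The 8 measured mitochondrially encoded genes had CVs of 1.83 to 2.26 in the EYFP positive and 1.38 to 1.73 in the EYFP negative library. The median mitochondrial share was 0.0583% and 0.0769% of UMIs, its maximum was 17.7% and 5.92%, and the 10% of cells with the highest level held 56.1% and 53.6% of all mt-Co1 UMIs. Mitochondrial share moves with RNA quality, and its part in these CVs was not tested. Ribosomal protein genes were steadier than these, with a median CV per gene of 0.377 and 0.562, and of 0.345 and 0.523 for their sum. Their median was near that of all 242 genes, 0.406 and 0.563.

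Beside the mitochondrially encoded genes, a block of minor trypsinogens varied widely in both libraries. Trypsinogen is the precursor of trypsin, which starts the activation of the other zymogens. RefSeq places 11 trypsinogen genes next to each other on chromosome 6 in the order 1810009J06Rik, Gm2663, 2210010C04Rik, Try4, Try5, Try10, Prss3, Gm5771, Gm10334, Prss1 and Prss2. Prss3 per 10000 UMIs of a cell ranged from 0 to 76.5 with a median of 10.8 in the EYFP positive library, and from 0 to 400 with a median of 6.74 in the EYFP negative one. Prss1 was not detected in most cells, being found in 27 of 88 EYFP positive cells (30.7%) and in 30.0% of EYFP negative cells, against 0% and 0.506% of the other barcodes, and its highest cells reached 19.1 and 31.4 per 10000 UMIs. Both genes thus went undetected in some cells and stood high in a few. The CV of Prss1 was 2.43 in the EYFP positive and 2.58 in the EYFP negative library, that of Gm5771 1.77 and 2.26, that of Gm10334 1.55 and 1.94 and that of Prss3 1.20 and 1.54. The 10% of cells with the highest level of a gene (9 and 36 cells) held 69.2% and 68.4% of all Prss1 UMIs, 58.5% and 67.4% of Gm5771, 51.6% and 59.4% of Gm10334 and 38.5% and 48.9% of Prss3. The abundant forms of the same locus are rule genes, whose spread the selection limits. Prss2 ranged from 137 to 757 per 10000 UMIs (median 574) in EYFP positive and from 82.4 to 959 (median 583) in EYFP negative cells. Try4 had a CV of 0.23 and 0.35, and Try5, the most variable of these 3, had 0.48 and 0.62.

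Prss3, Gm10334, Gm5771 and Prss1 varied together from cell to cell, and less so with the abundant forms. Correlations are descriptions over 80 EYFP positive and 335 EYFP negative cells of at least 2000 UMIs, which share 1 library each and differ in depth. Spearman's rho of Prss3 with Gm10334 was 0.84 in the EYFP positive and 0.69 in the EYFP negative library, of Prss3 with Gm5771 0.78 and 0.71, of Gm5771 with Gm10334 0.73 and 0.64, and of Prss1 with Prss3 0.60 and 0.55. Prss3 had a rho of 0.04 and 0.09 with Prss2 and of 0.02 and 0.05 with Try4, both abundant. With Try5 it had 0.27 and 0.26. Prss1 had a rho of 0.20 and 0.05 with Prss2 and of 0.13 and 0.10 with Try4. In the 10% of cells highest in Prss3 (8 and 34 cells), Gm5771 averaged 27.4 per 10000 UMIs in EYFP positive cells, against 3.03 in the remaining 72. In EYFP negative cells it averaged 30.7, against 2.12 in the rest. Of those 8 and 34 cells, 5 and 26 were also in the highest 10% by Gm10334 and 6 and 26 in the highest 10% by Gm5771. Prss2 averaged 657 in the EYFP positive cells high in Prss3 and 593 in the others, and Try5 473 and 258. In EYFP negative cells Try5 averaged 303 in those high in Prss3 and 249 in the others. A second pair at the other end of the locus, 1810009J06Rik and Gm2663, had a rho of 0.59 and 0.50. These 2 genes had a rho of 0.41 and 0.36, and of 0.40 and 0.27, with Try5, and of 0.33 and 0.32, and of 0.36 and 0.26, with Prss2.

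These genes are near-copies of each other, which bears on both the counts and the promoters. The last 300 bases of their annotated transcripts aligned with 99.2% identity over 245 bases between Prss3 and Gm10334, 98.5% over 274 bases between Gm5771 and Prss1 and 99.7% over 295 bases between 1810009J06Rik and Gm2663. Counting could split or share reads between such copies, so their separate levels are uncertain, and the part of this in their correlation was not tested. Try4 and Try5, both rule genes, had 96.3% identical ends and a rho of 0.08 in the EYFP positive and 0.20 in the EYFP negative library, or of 0.28 and 0.38 per UMI outside the 11 enzyme genes. Prss2 shared 86% of its end with Prss1. Of 211 stretches of 90 bases in such an end, Try4 and Try5 shared 15, Prss3 and Gm10334 61, and Gm5771 and Prss1 61. 1810009J06Rik and Gm2663 shared 138. Prss3 and Gm5771 shared 42, with 97.1% identity over 273 bases, and Gm5771 and Gm10334 shared 14, with 96% over 272. Prss1 shared 0 with Prss3 and with Gm10334. Try4 and Try5 are therefore not a like comparison for the closest pairs.

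The 250 bases before the annotated start are shown for the 4 co-varying genes and for Prss2, which varied little with them. They place the steady and the variable copies side by side. They are from RefSeq on GRCm38.p6, on the gene's own strand, at chr6:41377614-41377863 (Prss3, minus strand), chr6:41446098-41446347 (Gm10334, minus), chr6:41392106-41392355 (Gm5771, plus), chr6:41458680-41458929 (Prss1, plus) and chr6:41521526-41521775 (Prss2, plus). Capitals mark the letters CACCTG or CAGGTG (an E box, the element class that the acinar factor Ptf1a binds), TTTCCC or GGGAAA (the core of a TC box) and TATAAA.
Prss3: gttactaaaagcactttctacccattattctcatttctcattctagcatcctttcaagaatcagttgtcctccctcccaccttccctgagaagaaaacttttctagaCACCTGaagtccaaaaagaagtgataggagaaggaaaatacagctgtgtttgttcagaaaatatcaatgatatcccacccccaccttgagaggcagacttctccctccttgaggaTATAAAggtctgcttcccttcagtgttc
Gm10334: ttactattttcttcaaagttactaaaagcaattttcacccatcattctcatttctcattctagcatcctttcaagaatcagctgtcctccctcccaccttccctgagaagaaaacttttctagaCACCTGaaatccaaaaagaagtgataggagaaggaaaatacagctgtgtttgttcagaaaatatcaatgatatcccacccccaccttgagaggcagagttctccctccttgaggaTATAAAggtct
Gm5771: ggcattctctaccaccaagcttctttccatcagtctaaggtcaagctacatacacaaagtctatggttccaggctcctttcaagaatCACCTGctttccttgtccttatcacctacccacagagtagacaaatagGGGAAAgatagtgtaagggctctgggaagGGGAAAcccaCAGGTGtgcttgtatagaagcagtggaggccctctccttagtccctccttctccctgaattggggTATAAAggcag
Prss1: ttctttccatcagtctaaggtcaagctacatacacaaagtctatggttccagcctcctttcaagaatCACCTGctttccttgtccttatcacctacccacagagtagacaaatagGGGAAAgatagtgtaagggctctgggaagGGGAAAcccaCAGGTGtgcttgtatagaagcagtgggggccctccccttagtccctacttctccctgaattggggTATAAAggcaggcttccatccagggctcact
Prss2: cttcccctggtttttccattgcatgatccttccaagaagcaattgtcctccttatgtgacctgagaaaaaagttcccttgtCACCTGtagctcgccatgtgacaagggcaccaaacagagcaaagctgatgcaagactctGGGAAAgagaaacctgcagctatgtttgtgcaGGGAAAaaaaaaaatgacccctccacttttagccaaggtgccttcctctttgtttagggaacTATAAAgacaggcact

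The promoters of Prss3 and Gm10334 were 97% identical over 233 aligned bases, and those of Gm5771 and Prss1 98.3% identical over 230. Between the pairs identity was low, with 57.6% over 257 bases for Gm5771 and Gm10334, and Prss1 and Prss2 shared 57.4% over 256. The E box letters, searched on both strands, stood in all 8 trypsinogen promoters listed in the table (of 11 genes looked for) and in 17.2% of all 32851 promoters of the same length. The TC box letters, also on both strands, stood in 4 of the 8, namely Gm2663, Gm5771, Prss1 and Prss2, and in 21.9% of all promoters. TATAAA on the gene's strand stood in 8 of 8 and in 7.59% of all. These matches are letters in a window and no measure of binding, and neither the E box nor the TC box letters set the co-varying genes apart from Prss2.

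A second axis of variation ran through the lipases. Cel, the bile salt-stimulated lipase, followed Pnlip with a rho of 0.79 in EYFP positive and 0.78 in EYFP negative cells. Pnliprp1, a lipase-related protein, followed it with 0.71 and 0.76, the amylase Amy2a5 with 0.63 and 0.49, and Dmbt1, a mucosal scavenger glycoprotein, with 0.50 and 0.53. Clps ran opposite to Pnlip, with a rho of -0.75 and -0.61, as did Spink1, the trypsin inhibitor packed with the zymogens, with -0.58 and -0.55. Since shares of a fixed total push each other down, the correlation was repeated per UMI outside the 11 enzyme genes, which gave -0.43 and -0.31 for Spink1 and -0.60 and -0.39 for Clps. Pnlip and Clps are both among those 11, and the cells were chosen by the summed share. The repeat leaves that choice as it was, and its part in these correlations was not tested. In the 26 EYFP positive cells highest in Pnlip, Spink1 had a median of 43.8 per 10000 UMIs (19.8 to 77.3), against 68.5 (34.5 to 148) in the 26 lowest in Pnlip. In EYFP negative cells the medians were 47.2 (6.52 to 103) in the 111 highest and 73.2 (24.7 to 163) in the 111 lowest. High and low cells overlapped in both libraries. Reg2 had medians of 8.62 and 8.81 in the EYFP positive cells highest and lowest in Pnlip, and of 7.58 and 9.14 in the EYFP negative ones.

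**Figure D3:**
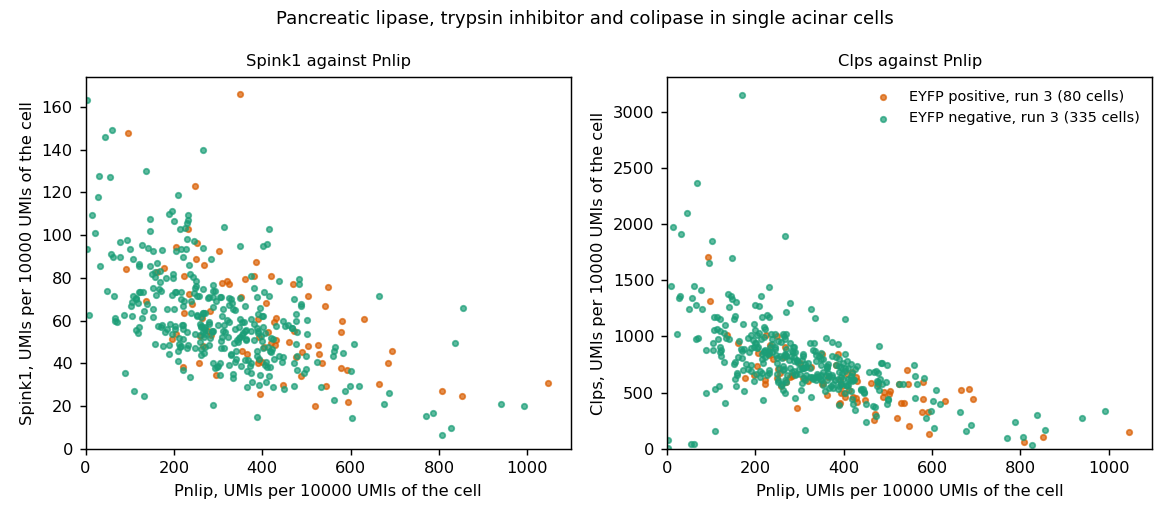
Each point is 1 acinar cell of at least 2000 UMIs (80 EYFP positive, 335 EYFP negative), with Pnlip on the horizontal axis and Spink1 (left) or Clps (right) on the vertical axis, all in UMIs per 10000 UMIs of the cell. Both genes fall as Pnlip climbs, with a rho of -0.58 and -0.55 for Spink1 and of -0.75 and -0.61 for Clps in the EYFP positive and EYFP negative library. Per UMI outside the enzyme genes these were -0.43 and -0.31, and -0.60 and -0.39. Pnlip and Clps are among the enzyme genes that chose the cells.

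The Reg lectins, secreted proteins known from injured and regenerating pancreas, ranged from steady to patchy. Reg1 was in all cells, at 4.83 to 621 per 10000 UMIs (median 224) in EYFP positive and 1.59 to 691 (median 261) in EYFP negative cells, with a CV of 0.34 and 0.35. Reg2 was found in 74 of 88 EYFP positive cells (84.1%, 74.8 to 91.0) and 313 of 363 EYFP negative cells (86.2%, 82.2 to 89.6), against 1.48% and 2.94% of the other barcodes. It ran from 0 to 105 per 10000 UMIs (median 8.41) and from 0 to 115 (median 8.28), with a CV of 0.92 and 1.11. Most injured acinar cells thus held Reg2, at levels spread more widely than those of Reg1. With each cell thinned to 1000 UMIs (4 and 6 shallower cells left out), 59.5% and 54.1% held it, against 0% and 0.765% of the other barcodes. Reg3b, a bactericidal lectin, was in 56.8% and 59.5% of cells before and in 9.52% and 18.8% after thinning, against 0.741% and 0.911% of the other barcodes before it. Reg3g, another bactericidal lectin, was in 40.9% and 37.2%, Reg3d in 64.8% and 69.1%, and Reg3a in 23.9% and 21.2% of cells.

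Reg2 and Reg1 varied together. Among genes with a mean of at least 0.5 UMI per cell, Reg1 was the gene most like Reg2 in both libraries, with a rho of 0.49 among 395 genes in the 88 EYFP positive cells and 0.47 among 412 genes in the 363 EYFP negative cells, per UMI outside the enzyme genes. The genes most like Reg3b differed, being Hamp2, a hepcidin, in EYFP positive cells (rho 0.37) and Gm2663 in EYFP negative cells (0.32), while Reg2 and Reg3g were among the 5 most like it in both.

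Stress genes varied widely too. Nupr1, a chromatin-associated stress protein of the pancreas, was in 97.7% and 98.3% of cells with a CV of 0.80 and 0.89. Mt1, a metallothionein that binds zinc, was in 81.8% and 85.4% with a CV of 1.28 and 0.91, and the chaperone Clu, known from regenerating epithelia, in 68.2% and 70.5% with 1.09 and 1.16. The endoplasmic reticulum chaperones Hspa5 and Hsp90b1 had CVs of 1.18 and 0.90, and of 1.0038 and 1.04. The immediate-early genes Fos and Jun, which respond fast to cell stress, were rare. Fos was in 1 of 88 EYFP positive cells and in 1.10% of EYFP negative cells, against 68.9% and 60.4% of the other barcodes, and Jun in 0% and 3.86%, against 83.0% and 76.2%. Malat1, a nuclear long non-coding RNA, was in 17.0% and 12.4% of acinar cells, against 87.4% and 94.1% of the other barcodes.

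In cells with a lower enzyme share most other messages took a larger part of what remained, while other secretory genes took a smaller one. The quartile of cells with the lowest enzyme share (22 EYFP positive cells up to 54.9% and 91 EYFP negative cells up to 53.4%) was set against the quartile with the highest (from 62.7% and 61.6%), per UMI outside the 11 enzyme genes. Median depth moved with the quartiles, at 3475.5 against 8566.5 UMIs per cell in the EYFP positive and 4417 against 8128 in the EYFP negative library, and its part was not tested. Of 414 genes with at least 100 UMIs in the EYFP negative quartiles, 328 were higher and 53 lower in the low quartile in both libraries, and 92 (22.2%) were at least 2-fold higher and 23 (5.56%) at least 2-fold lower in both. The denominator leaves out the enzyme genes but keeps the other secretory genes, so values are relative. Cytosolic ribosomal protein genes were higher in the low quartile in 80 of 80 cases, 18 of them at least 2-fold in both, with a median log2 ratio of 0.90 in the EYFP positive and 1.06 in the EYFP negative library, beside 0.88 and 0.94 over all genes, so their size was near the background. Nuclear genes of oxidative phosphorylation were higher in 52 of 56. Mt1 had a log2 ratio of 1.93 and 1.08 and Nupr1 of 1.62 and 1.21.

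Other secretory genes fell with the enzyme genes that set the quartiles. The 4 measured amylase genes were at least 2-fold lower in the low quartile in both libraries, Amy2a5 being at 15.6 in the low quartile per 10000 UMIs outside the enzyme genes, against 57.2 in the high quartile, in EYFP positive cells, and at 4.34 against 14.4 in EYFP negative cells. Whether reads were shared between these 4 was not examined. The tissue kallikrein Klk1 had log2 ratios of -1.75 and -1.59, the lipase-related Pnliprp2 -1.82 and -1.62, the zymogen granule membrane protein Gp2 -1.15 and -1.58, and the hydrolase Ggh -1.90 and -1.56. Of 7 trypsinogens outside the rule, 6 were lower in both libraries, 2 of them at least 2-fold. Those 2 were Prss1 with -2.10 and -2.08 and Gm5771 with -1.34 and -2.22. 1810009J06Rik had -1.88 in the EYFP positive and 0.44 in the EYFP negative library. The Reg lectins were lower in 5 of 5 cases but 0 were 2-fold lower in both, Reg2 having -1.11 and -0.81. Spink1 differed little, at 0.26 and 0.03. Some of the largest ratios in the EYFP negative library came with messages of other cells. Hbb-bs was at 318 in the low quartile, against 15.3 in the high one, where the EYFP positive library had 2.91 against 4.43, and Spp1, an osteopontin made by duct cells, had 132 against 0 UMIs, 99.2% of its UMIs in all 363 cells coming from 1 cell.

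Krt19, Krt7 and Sox9, and the progenitor and cell cycle genes named here, were found in few of these cells, while the keratins Krt18 and Krt8 of simple epithelia were found in more. Krt18 was in 44.3% of the EYFP positive cells and 37.7% of the EYFP negative ones, against 13.3% and 1.72% of the other barcodes, and Krt8 in 15.9% and 23.7%, against 12.6% and 1.01%. Both were more than 2-fold higher in the quartile of cells with the lowest enzyme share, with log2 ratios of 1.43 and 1.53 for Krt18 and 2.49 and 1.62 for Krt8, the Krt8 ratio in EYFP positive cells resting on 7 against 2 UMIs. Of 6 measured duct and metaplasia genes, 5 were higher in that quartile in both libraries, beside 328 of all 414 genes. Krt19, a duct keratin, was in 4 of 88 EYFP positive cells (4.55%, 1.25 to 11.2) and 26 of 363 EYFP negative cells (7.16%, 4.73 to 10.3), against 11.9% and 0.506% of the other barcodes. Sox9, a duct and progenitor transcription factor, was in 2.27% and 2.20%, against 11.1% and 1.01% of the other barcodes. Krt7 was in 0 and 2 cells. Both keratins and Sox9 were below the other barcodes in the EYFP positive library, where duct markers summed to 7592 CPM in those, and Krt19 was above them in the EYFP negative library, where they summed to 202 CPM. Mki67, a proliferation marker, was in 0 and 1 cells, and the spindle gene Stmn1 in 3.41% and 4.96%. Dclk1 and Tert, proposed progenitor markers, were in 0 of 88 EYFP positive cells, which allows a share of up to 3.41%, and in 0 of 363 EYFP negative cells, which allows up to 0.826%. These limits are for cells with a UMI, not for cells that express the gene. Bmi1 was in 0 EYFP positive cells and in 1.65% of EYFP negative cells, against 22.2% and 11.5% of the other barcodes. Acinar identity factors were in a minority of cells, Ptf1a being in 12.5% and 12.4% of cells, against 0% of the other barcodes of both libraries. Its partner Rbpjl was in 25% and 35.3%, and Bhlha15 (Mist1), which shapes the secretory apparatus, in 19.3% and 7.99%, against at most 1.48% of the other barcodes. Thinned to 1000 UMIs, Bhlha15 was in 1.19% and 1.12%.

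Amylase genes had the highest ratios between EYFP positive and EYFP negative acinar cells of run 3, and globin genes and Malat1 the lowest. With 1 library on each side the difference has no replicate check, and ratios of summed CPM carry counting intervals only. Amylase gene Amy2a5, whose product cleaves starch, stood at 2641 CPM in EYFP positive and 462 CPM in EYFP negative acinar cells, a ratio of 5.72 (95% counting interval 5.34 to 6.12). It stood at 4027 and 2796 CPM in EYFP positive homeostasis libraries and at 3980 and 630 CPM in EYFP negative ones, so the EYFP negative library of run 3 was the lowest of 6. Amy2a3, Amy2a2 and Amy2a4 had ratios of 4.25, 3.96 and 3.48, AY036118, a long non-coding RNA in RefSeq, 3.77, and Amy1 2.12. All 5 amylase genes with enough UMIs were at least 2-fold higher, beside 9 of 795 genes (1.13%) in all, and 32 (4.03%) were at least 2-fold lower. Sharing of reads between amylase genes was not examined, so the 5 may not be separate observations. The lowest ratios were those of Hba-a1 (0.0295), Hba-a2 (0.0359), Hbb-bs (0.0545), Hbb-bt (0.0947) and Malat1 (0.144), of which single EYFP negative cells held 29.1% to 35.6% of the UMIs. The regeneration and inhibitor genes differed little, Reg2 having a ratio of 0.805, Reg1 0.879, Reg3b 0.809 and Spink1 1.0002.

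Over the 3 runs, 6 of 496 genes outside the enzyme rule (1.21%) passed an adjusted p of 0.05 for EYFP positive against EYFP negative acinar cells in edgeR's quasi-likelihood test, all lower. They were messages of red cells, antibody-secreting cells and nuclei, with log2 fold changes of -4.17 (SE 0.645, adjusted p 0.00121 by edgeR) for Hbb-bs, -4.31 for Hba-a2, -4.09 for Hba-a1, -3.20 for Hbb-bt, -3.39 for the antibody light chain Igkc and -2.13 for Malat1. Without cells over 5% haemoglobin UMIs 2 genes passed. Without EYFP negative run 1, 10 passed, 5 of them higher and 5 lower. Without EYFP positive run 1 or run 2, 0 passed in edgeR, with 8 and 16 genes at an unadjusted p under 0.05. The libraries of both groups did not overlap in 28 of 496 genes (5.65%). In the main edgeR fit no gene was higher past the threshold (0%), while 12 genes of both directions had an unadjusted p under 0.05. DESeq2 called 0 higher and 1 lower. Among the higher genes of lowest p were Gstp1 (log2 fold change 1.35, edgeR adjusted p 0.548), Amy2a4 (1.02), Gm11808 (0.78) and 1810009J06Rik (1.06). Amy2a5 had a log2 fold change of 1.08 (SE 0.675, edgeR adjusted p 0.9999). Amy2a4 and Amy2a5 were each called higher under 1 of 17 alternatives. Whether the EYFP difference itself changed with pancreatitis was tested as an interaction, which passed in 0 of 496 genes (0%), with 25 at an unadjusted p under 0.05. Amy2a5 had an interaction of 2.49 on the log2 scale (edgeR adjusted p 0.904).

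Between pancreatitis and homeostasis, Reg lectins and minor trypsinogens were higher in the acinar cells of run 3. In sums per library, 22 of 496 genes outside the enzyme rule (4.44%) passed an adjusted p of 0.05 in edgeR's quasi-likelihood test with Benjamini-Hochberg adjustment, 12 higher (2.42%) and 10 lower (2.02%). Reg2 stood at 1186 and 1474 CPM in EYFP positive and EYFP negative pancreatitis cells, against 36.3, 0, 0 and 10.2 CPM in the 4 homeostasis libraries. All pancreatitis values lay above all homeostasis values, as they did in 98 of 496 genes (19.8%) in either direction. Its log2 fold change was 5.67 (SE 0.552, edgeR adjusted p 2.69e-06). Reg3b had 172 and 212 CPM in pancreatitis, against 7.25, 0, 0 and 10.2 in homeostasis, where only 3 UMIs were seen in all, a ratio of 29.6 with a counting interval of 10.1 to 144. Reg3g had 67.2 and 73.9 CPM in pancreatitis and 0 UMIs in homeostasis acinar cells. It was at least 10.5-fold higher against a floor of 3 UMIs over the homeostasis libraries. Over all barcodes, acinar or not, EYFP positive run 2 of homeostasis held 55 Reg3g UMIs. Reg3a, also without a UMI in homeostasis acinar cells, was at least 5.15-fold higher and too low for the test.

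Among the Reg family, 3 of 5 tested members were called, and Reg1 and Reg3d were not. Of the 3, Reg3g had 0 UMIs in homeostasis acinar cells, so it could only come out higher, and DESeq2 did not call it. Reg1 had 24076 and 27388 CPM in pancreatitis, against 12477, 10101, 7781 and 16315 CPM in homeostasis (log2 fold change 0.98, SE 0.466, edgeR adjusted p 0.364), and the groups did not overlap. Reg3d had a log2 fold change of 0.63 (edgeR adjusted p 0.581). Before thinning Reg2 was in 6 of 35, 0 of 5, 0 of 8 and 1 of 16 homeostasis cells.

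Of 7 tested trypsinogens outside the rule, 5 were called higher, and Gm10334, outside that list, was also called. Prss3 had 1800 and 1504 CPM in pancreatitis, against 225, 271, 220 and 91.5 CPM in homeostasis (log2 fold change 2.89, SE 0.436, edgeR adjusted p 0.000187). Gm10334 had 991 and 507 CPM, against 25.4, 0, 0 and 40.7 CPM (4.67, SE 0.541, edgeR adjusted p 9.31e-06). Gm5771 had 558 and 480 CPM, against 7.25, 180, 0 and 20.3 CPM (4.88, SE 0.618, edgeR adjusted p 2.32e-05), the 180 CPM resting on 2 UMIs. Prss1, with 2 UMIs in homeostasis, had a ratio of 35.4 with a counting interval of 9.76 to 293. Gm2663 and 1810009J06Rik had 577 and 414 CPM and 588 and 334 CPM in pancreatitis and 0 UMIs in homeostasis acinar cells, at least 65.1-fold and 56.2-fold higher. Over all barcodes, acinar or not, homeostasis held 37 Gm2663 UMIs in EYFP positive run 1 and 1 in EYFP negative run 2. EYFP positive run 2 held 5 UMIs of 1810009J06Rik. The remaining members were not called. The abundant 2210010C04Rik had 43170 and 45251 CPM in pancreatitis, against 56416, 57179, 57627 and 50897 CPM in homeostasis (-0.51, edgeR adjusted p 0.784), and Try10 had a log2 fold change of -0.60 (edgeR adjusted p 0.571). Prss1, Gm5771, Gm10334, Prss3 and 1810009J06Rik, all among the 15 most variable genes of the injured cells, were also called higher in them than in homeostasis. The variable genes needed a mean of at least 1 UMI per cell in run 3, so both lists rest on run 3 levels. Their overlap is therefore no second result. The median log2 fold change was 4.88 for the 7 trypsinogens and 4.48 for the 5 Reg genes, beside 0.09 for all genes tested. With genes at 0 UMIs in homeostasis set to their bound, these medians were 4.88 and 3.40. Those genes, Gm2663, 1810009J06Rik and Reg3g, passed the low-count filter through run 3 alone and could only come out higher. Their calls enter the counts of called members, and DESeq2 called none of them.

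**Figure D4:**
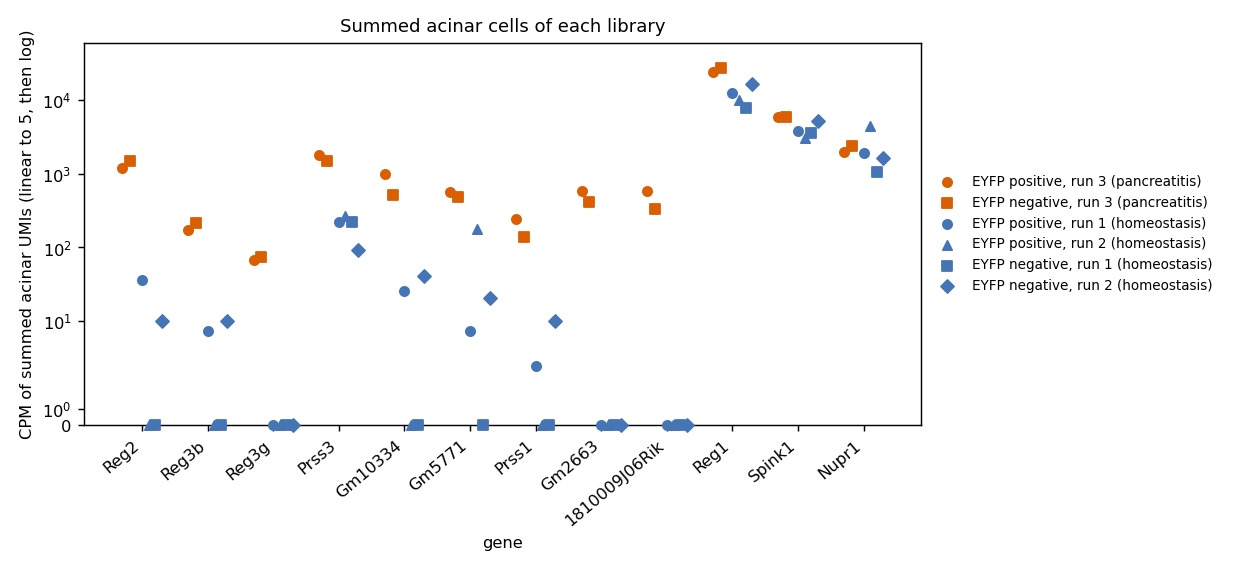
Summed acinar cells of each library, in CPM on an axis that is linear to 5 and logarithmic above, for 12 genes; orange marks the pancreatitis libraries and blue the 4 homeostasis libraries. Reg2, Reg3b, Reg3g and the minor trypsinogens lie above every homeostasis library, whereas Nupr1 overlaps with homeostasis and Reg1 and Spink1 lie closer to it.

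The 10 genes lower in pancreatitis included antibody chains, mitochondrially encoded genes, Malat1 and Gm42418. Igkc had 3.74 and 11.7 CPM in pancreatitis, against 32.6, 0, 560 and 478 CPM in homeostasis (log2 fold change -5.38, edgeR adjusted p 2.32e-05), and Ighm, the antibody mu chain, had a log2 fold change of -4.60 (edgeR adjusted p 0.0016). The 4 plasma cell markers summed to 1.25 and 5.99 CPM in pancreatitis acinar cells, against 7.25, 0, 200 and 132 CPM in homeostasis, and in other barcodes to 2517 and 4940 CPM, against 1845, 867, 11820 and 7163 CPM. Their part in the result was not tested. Lars2, a mitochondrial leucine-tRNA ligase, had 238 and 119 CPM, against 758, 1443, 960 and 1006 CPM (-2.69, edgeR adjusted p 0.000864). Of 11 tested mitochondrially encoded genes 4 were called lower, mt-Nd3 having a log2 fold change of -2.50 (edgeR adjusted p 0.00536). The median mitochondrial share of cells was 0.0583% and 0.0769% in pancreatitis, against 0.0382%, 0.132%, 0.650% and 1.12% in homeostasis. Malat1 had a log2 fold change of -2.09 (edgeR adjusted p 0.00444), with overlapping groups. Gm42418 had 2936 and 1555 CPM in pancreatitis, against 16323, 10372, 61267 and 23004 CPM in homeostasis (-3.45, edgeR adjusted p 0.0157). Its call was lost under 6 of 19 alternatives. Hbb-bs, Hba-a1 and Hba-a2 were among the 12 higher genes, Hbb-bs with 217 and 3974 CPM in pancreatitis, against 10.9, 0, 40.005 and 478 CPM in homeostasis, and the groups overlapped. Without cells over 5% haemoglobin UMIs, 17 genes were called, 9 of them higher.

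The other gene lists had no called member. These were the chymotrypsins and elastases, carboxypeptidases, lipases, amylases and nucleases, zymogen granule proteins, acinar transcription factors, stress genes, the secretory pathway, immediate-early genes, duct and metaplasia genes, the cell cycle, progenitor markers, ribosomal proteins, nuclear oxidative phosphorylation, interferon response and secretagogue pathway, with 1 to 80 members tested each, and for clock genes 0 were tested. Nupr1 had a log2 fold change of 0.03 (SE 0.414, edgeR adjusted p 0.982), Clu -0.70 (0.544), Mt1 -1.14 (0.612) and Spink1 0.44 (0.777). Amy2a5 had -1.45 (SE 0.742, edgeR adjusted p 0.385). Reg2, Prss3 and Gm10334 passed under each alternative in which they were tested, while each of the other 19 called genes was lost under at least 1 of them. Without EYFP positive run 1, which holds 35 of the 64 homeostasis cells, 8 genes passed, and without EYFP negative run 3, 10. Enzyme-rich barcodes that the filters left out, 67 and 66 in run 3, held Reg2 at 618 and 993 CPM and Reg3g at 0 and 28.0 CPM.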

How the data were processed

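For 6 libraries the authors deposited unnormalized UMI counts, which the file headers give as integers. Per the submitters' processing notes Cell Ranger 2.1.0 and build GRCh38 were used, the file headers name software 3.1.0, and the features are mouse genes, so the sources used here do not give the mouse build. The 31053 features held 0 rows for EYFP, so the sort could not be checked. The members and gene lists were chosen with earlier results of these data known.

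Cells were selected as stated, using Python 3.11.15, numpy 2.4.6, pandas 2.3.3 and scipy 1.17.1 (matplotlib 3.10.9 for figures). Scrublet ran per library in scanpy 1.11.5 with 20 components. UMI counts were summed per library over acinar cells, and edgeR 4.0.16 in R 4.3.3 (TMM, filterByExpr, quasi-likelihood F test, EYFP and state as terms, Benjamini-Hochberg over 507 genes, 496 of them outside the rule) compared the 6 libraries, at an adjusted p under 0.05. Depth per library was 11088 to 3003692 acinar UMIs. Counting intervals are exact at 95%, and the floor for 0 UMIs is 3. UMIs are counted once per molecule, and intervals cover no other error. Cells are not replicates, so values within run 3 carry no test. The CV and the edgeR fit were tested on simulated data.

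Genes were named by rule: the 11 enzyme genes, the 15 most and 5 least variable genes of the EYFP negative library, the 10 largest quartile ratios and the 5 largest EYFP ratios per direction, up to 10 called genes per direction without overlap and with mean log2 CPM from 5 upward (otherwise the 5 of lowest p), and up to 6 members per list, with Reg, duct, cell cycle, progenitor, stress and globin genes always eligible. The 5 genes most like Reg2 and Reg3b were eligible too. Gene pairs and other names outside it were chosen after their values were seen. A gene that the rule names is not reported here. Alternatives were DESeq2 1.42.0, its size factors, no low-count filter, other enzyme limits and cell filters, doublets removed, thinning, sums without the rule genes, single libraries omitted, and a run block (limma 3.58.1).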

Additional observations from a re-analysis of the deposited data

How the results depend on the processing

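The number of acinar cells was within 1.5 times of 88 and 363 at enzyme limits of 15% and 50%, and was 44 and 192 when cells needed 500 genes and no more than 10% mitochondrial UMIs. The 55 genes with a CV of at least 0.5 in both libraries became 99 with cells thinned to 1000 UMIs (32 shared with the 55), 34 at a 50% enzyme limit and 84 without the 5% of cells with most UMIs. Reg2 was in 92.8% of EYFP negative cells at the 50% limit. Thinning gave 59.5% and 54.1% for Reg2 and 9.52% and 18.8% for Reg3b, so shares of cells depend on depth.

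The 22 genes called between pancreatitis and homeostasis became 14 with DESeq2, 14 at the 50% limit, 4 with sums thinned to the smallest library (76 genes tested) and 8 to 30 with 1 library left out. The 6 genes called for EYFP became 1 with DESeq2, 0 at the 50% and 2 at the 15% limit, 3 with stricter cells (EYFP positive run 2 keeps no cell there), 0 with thinned sums, 2 without cells over 5% haemoglobin UMIs, and 0 to 10 with 1 library left out. At a count of 0 for the 50% limit, 12 genes had an unadjusted p under 0.05, and for thinned sums 2. The haemoglobin alternative and limma voom without a block (31 genes) were chosen after seeing the data.

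Deviations of same-numbered homeostasis libraries from their group mean correlated at 0.051 over 507 genes. Each homeostasis group held only runs 1 and 2, so both runs give the same value by construction. It cannot decide whether the libraries of a run vary together. With run as replicate block in limma voom 32 genes passed (all 22 shared), with libraries summed per run as replicate block 42 (21 of the 22 shared), and for EYFP with run number as replicate block 6.

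Under the alternatives, 0 of the single values changed sign past the threshold, 117 called values lost their call, 4 gained one, 36 moved and 944 stayed. The cause was not tested.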

Other observations

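Enzyme-rich barcodes made up a larger share of the removed barcodes in the EYFP positive than in the EYFP negative library of run 3. Their numbers were near equal, and the number of barcodes removed differed. They were 67 of 232 removed barcodes in EYFP positive run 3 (28.9%, exact 95% interval 23.1 to 35.2) and 66 of 2227 in EYFP negative run 3 (2.96%, 2.30 to 3.76), mostly for holding under 200 genes (61 and 66). In homeostasis they were 68 of 168 and 8 of 34 in EYFP positive runs 1 and 2, and 3 of 375 and 63 of 737 in EYFP negative runs 1 and 2. Set against all enzyme-rich barcodes of run 3, the filters removed 67 of 155 EYFP positive and 66 of 429 EYFP negative ones.

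Reg2 was at 618 and 993 CPM in those of EYFP positive and EYFP negative run 3, against 48.4, 123, 0 and 116 CPM in those of EYFP positive runs 1 and 2 and EYFP negative runs 1 and 2, which rest on 4, 1, 0 and 6 UMIs. Prss3 was at 2553 and 1524 CPM, against 218, 369, 0 and 270 CPM in the same order. Amy2a5 was at 2250 CPM and 531 CPM, against 5510, 3319, 2379 and 985 CPM. Reg3g, called higher in acinar cells, was at 0 and 28.0 CPM, against 12.1, 123, 0 and 0 CPM, on at most 2 UMIs per library. Over all barcodes Reg3g had 52.6 CPM in EYFP positive run 2, against 18.8 and 9.93 CPM in run 3. EYFP positive run 1 and EYFP negative runs 1 and 2 had 0.171, 0 and 0.499 CPM.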
